A study of Drosophila melanogaster with 3 samples.

Results

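The genes for the proteins of the mitochondrial ribosome were examined for binding of Met, a transcription factor of *Drosophila melanogaster*, at their promoters. They were taken as all protein-coding genes whose symbol begins with mRpL or mRpS in the Ensembl annotation, which gave 73 of the 13945 protein-coding genes on the 6 major chromosome arms. By the letter of the symbol, 47 are named for the large subunit and 26 for the small subunit. The place of each protein in the ribosome was not checked otherwise. A gene was scored as having a promoter peak when the summit of a Met peak lay within 1 kb of one of its annotated transcription start sites (TSSs).

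The data came from chromatin immunoprecipitation and sequencing (ChIP-seq) of whole white prepupae, which are animals at the onset of metamorphosis. There was 1 group with 3 biological replicates, each from its own sample record. All animals came from a transgenic line that stably expresses Met with GFP fused to its C-terminus, males and females were pooled, no treatment is named, and age is given as unknown. Chromatin was sonicated to a size range of 200 to 800 and precipitated with an antibody to GFP, so the tagged protein and not endogenous Met was measured. No untagged animals, other stage or hormone treatment were analysed here, so the data hold no comparison between conditions. Peaks at promoters that an antibody to GFP would also give in untagged animals were therefore not marked or removed, and each share of genes with a peak includes any such peaks. Whole animals mix many tissues, and a peak in few cells cannot be told apart from a weak peak in many. Peak lists hold no expression values, so the labelled stage could not be checked against marker genes.

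Mitochondrial ribosomes translate the few respiratory chain proteins that mitochondrial DNA encodes. Their own proteins are all encoded in the nucleus, made in the cytoplasm and imported, so their assembly depends on many scattered nuclear genes. Some of these proteins belong to families shared with bacterial ribosomes, and others are specific to mitochondria. Met belongs to the bHLH-PAS family and is a receptor for juvenile hormone, which with ecdysone times moults and metamorphosis; in insects it is known to bind E-box-like elements together with a bHLH-PAS partner and to activate *Kr-h1*, a zinc finger gene that holds back metamorphosis. The strongest peak of these data, rank 1, had its summit inside the *Kr-h1* gene, though not within 1 kb of a TSS of a coding gene.

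The authors' IDR list, named for a threshold on reproducibility between replicates, holds 8513 peaks in the dm6 build. They are the strongest of the pooled peaks, and not each of them overlapped a peak in every replicate. Peaks were ranked within each list by the authors' signal value, rank 1 being the strongest. The signal depends on the depth of a library, which is unknown, so it was compared within a list only. The IDR signals ran from 98.7 to 13960.8. Each relaxed list, 1 per replicate and 1 for the pooled replicates, holds 30000 peaks, and the 8513 strongest of each replicate were used.

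A promoter peak was found at 24 of the 73 mitochondrial ribosomal protein genes (32.9%), beside 3098 of all 13945 protein-coding genes (22.2%). Among genes with 1 annotated TSS, the share was 15.4%, and 67 of the 73 members had 1 TSS. Genes of the cytoplasmic ribosome, the other ribosome of the same cells, had a promoter peak in 59 of 85 cases (69.4%). Genes for the nuclear-encoded respiratory chain and ATP synthase, the complexes into which the mitochondrial ribosome's products are built, had one in 22 of 93 cases (23.7%). No test was made between these lists, and the shares are a description. Other distances gave 19 of 73 within 250 bp (26%), beside 14.3% of all protein-coding genes, 23 within 500 bp (31.5%), beside 18.6%, and 29 within 2 kb (39.7%), beside 27.9%. The members' share was above that of all genes at each distance, but not under every rule: with the whole list of pooled peaks it was 27 of 73 (37%), beside 37.9%, and with each peak given only to the gene of the nearest TSS it was 12 of 73 (16.4%), beside 17.8%.

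The 3 replicates gave similar shares for the members when each was read alone. A promoter summit was present at 31 members in replicate 1, at 27 in replicate 2 and at 28 in replicate 3, or 39.3% ± 2.85 of the members (SD, n = 3). The same lists gave 25.3%, 23% and 24.7% of all protein-coding genes, or 24.4% ± 1.19 (SD, n = 3). In each replicate the share of members was above the share of all genes and below that of the cytoplasmic ribosomal genes, which was 76.1% ± 5.8 (SD, n = 3). The respiratory chain genes had 25.1% ± 3.46 (SD, n = 3). The replicates carry the same transgene and were called against the same control, so their spread does not cover either.

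**Figure D1:**
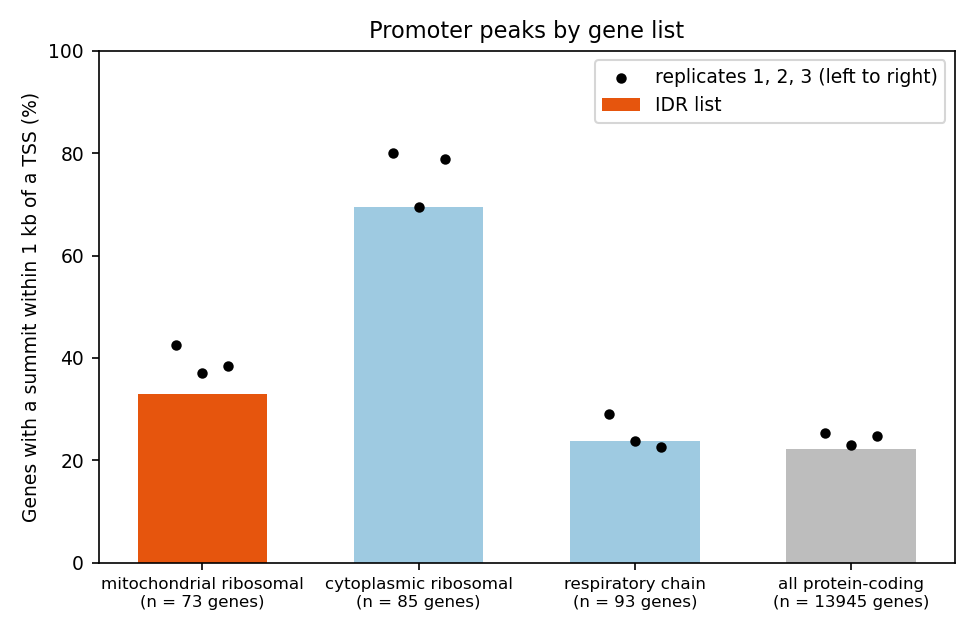
Share of genes with a Met summit within 1 kb of a TSS (percent, vertical axis) for 4 gene lists (horizontal axis). Bars give the IDR list and points the 3 replicate lists. The points of the mitochondrial ribosomal protein genes, from 37% to 42.5%, lie above those of all protein-coding genes, from 23% to 25.3%, and below those of the cytoplasmic ribosomal genes, from 69.4% to 80%.

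The DNA at the summits was rich in A and T. The G+C content in the 101 bases centred on the summit had a median of 28.2% over the 24 members. It ran from 14.9% to 55.4%. The median was 32.2% over all genes with a promoter peak, and 30.7% over those with a head-to-head neighbour, defined below. It was 29.7% for respiratory chain genes and 45.5% for cytoplasmic ribosomal genes. The longest unbroken run of A or T in these windows had a median of 12.5 bp at the member summits and of 10 bp at all 2385 promoter summits. To show what the summits look like, windows of 7 of the 10 members of best rank follow, and that of *mRpS22* as a weaker peak with a short run. The runs in these 8 windows are from 7 to 30 bp long, and that of *mRpL20* is the longest of all 24. The windows of *mRpL23*, *mRpL41* and *mRpL34*, with runs of 16, 14 and 8 bp, complete the 10 but are not printed. They were read from the RefSeq Release 6 genome (dm6), on the strand of the member, and capitals mark the longest run of A or T. Of the *mRpS2* window, only the 70 bases outside annotated exons are given. The windows are chr2L:13835419-13835519 (minus strand) for *mRpS23*, chr3R:15229472-15229572 (plus) for *mRpS10*, chr2L:4945440-4945540 (minus) for *mRpL24*, chr2L:4850571-4850640 (minus) for *mRpS2*, chr3L:13018100-13018200 (minus) for *mRpL20*, chr3L:4364412-4364512 (plus) for *mRpS6*, chr2L:10386446-10386546 (plus) for *mRpS7* and chr3R:27916673-27916773 (plus) for *mRpS22*.
mRpS23: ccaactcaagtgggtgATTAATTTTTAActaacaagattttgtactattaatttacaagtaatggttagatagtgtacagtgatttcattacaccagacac
mRpS10: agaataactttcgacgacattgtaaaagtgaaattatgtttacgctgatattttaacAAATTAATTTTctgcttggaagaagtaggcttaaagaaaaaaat
mRpL24: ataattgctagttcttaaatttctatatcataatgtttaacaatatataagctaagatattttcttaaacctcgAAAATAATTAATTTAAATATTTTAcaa
mRpS2: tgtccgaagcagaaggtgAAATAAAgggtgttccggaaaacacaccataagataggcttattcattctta
mRpL20: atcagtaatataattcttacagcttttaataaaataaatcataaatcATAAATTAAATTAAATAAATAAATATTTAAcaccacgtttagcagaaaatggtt
mRpS6: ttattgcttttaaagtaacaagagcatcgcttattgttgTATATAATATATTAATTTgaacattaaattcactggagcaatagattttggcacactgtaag
mRpS7: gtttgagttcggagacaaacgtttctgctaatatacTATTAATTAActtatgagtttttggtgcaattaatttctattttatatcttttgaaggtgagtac
mRpS22: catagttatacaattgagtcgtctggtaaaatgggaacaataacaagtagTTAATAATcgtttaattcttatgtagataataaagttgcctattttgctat
The runs differ in sequence and place from window to window, and no common word was searched for beyond the motifs given further on.

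Promoter peaks occurred in both subunits and in both evolutionary classes. Of the genes named for the small subunit, 11 of 26 had one (42.3%), and of those named for the large subunit 13 of 47 (27.7%). Of genes whose human counterpart belongs to a family also found in bacterial ribosomes, 17 of 45 had one (37.8%), beside 7 of 28 genes of the mitochondria-specific class (25%). These differences rest on few genes and were not tested. By chromosome arm, peaks were found at 5 of 12 members on 2L, 4 of 12 on 2R, 8 of 17 on 3L, 5 of 21 on 3R and 2 of 11 on X. The shares of all protein-coding genes on those arms were 22%, 19.3%, 23.1%, 21.4% and 26.4%. Chromosome 4 has no member. The 24 peaks were 24 different peaks, so no summit served a pair of members.

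The strongest peak at a member was that of *mRpS23*, a mitochondria-specific small subunit protein, at rank 12 of the IDR list with a signal of 3531. Its rank was 18 in replicate 1, 12 in replicate 2 and 11 in replicate 3. The gene lies at chr2L:13834250-13835072 on the minus strand, and its summit lies in intergenic DNA 397 bp upstream of its TSS and 95 bp from the TSS of *CenG1A*, an Arf GTPase-activating protein gene that runs the other way. All 3 replicates placed this peak among their 18 strongest.

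*mRpL41*, a mitochondria-specific large subunit protein (chr2R:15217024-15217617, minus strand), came next at rank 21. It ranked 13, 30 and 25 in replicates 1, 2 and 3, and its summit lies 142 bp upstream of its own TSS, the nearest of any coding gene. *mRpS10*, which belongs to a family of the bacterial small subunit (chr3R:15229665-15230516, plus strand), had rank 30, with 26, 40 and 37 in the replicates. Its summit lies 143 bp upstream of its TSS and 114 bp from that of *Art3*, an arginine methyltransferase gene. These peaks stayed within the 40 strongest of every replicate.

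*mRpL23* encodes a large subunit protein whose bacterial counterpart sits at the exit of the peptide tunnel (chr3L:2372844-2373704, minus strand). Its peak had rank 55 in the IDR list and ranks 42, 65 and 75 in the replicates. The summit lies 65 bp downstream of the nearest TSS of the gene, in a noncoding exon or UTR, and is 1 of 2 member summits downstream of the TSS. With these, 4 of the 73 members were among the genes with one of the 100 strongest peaks, beside 89 of all 13945 genes (0.638%).

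The next 6 peaks were weaker by a wide step. *mRpL24*, a large subunit protein of a bacterial family (chr2L:4944256-4945361, minus strand), had rank 464, with 340, 555 and 590 in the replicates. Its summit lies 129 bp upstream of its TSS and 89 bp from that of *betaggt-I*, which encodes the beta subunit of a protein prenylation enzyme. No member peak fell between ranks 55 and 464. *mRpS2* (chr2L:4849439-4850419, minus strand) had rank 855, with 705, 1103 and 944 in the replicates, and its summit lies 202 bp upstream of its TSS but 20 bp from that of *Mon1*, a gene for a Rab7 activator of endosomes. *mRpL20* (chr3L:13017149-13017867, minus strand) had rank 1463, with 1692, 1351 and 1651, and a summit 283 bp upstream and 116 bp from the TSS of *Icmt*, an isoprenylcysteine carboxyl methyltransferase gene. At these 3 promoters the summit thus lies closer to the neighbour than to the ribosomal gene.

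At the other 3 it lies closer to the ribosomal gene. *mRpS6* (chr3L:4364550-4365243, plus strand) had rank 1579, with 1572, 1427 and 2022 in the replicates and a summit 88 bp upstream. *mRpS7* (chr2L:10386662-10387652, plus strand) had rank 2428, with 2062, 2697 and 3634, and its summit lies 166 bp upstream in the interval shared with the cell cycle kinase gene *Cdk1*. *mRpL34* (chr2R:16098948-16099337, plus strand) had rank 2484, with 2315, 3311 and 2655, and its summit lies 188 bp upstream in the interval shared with *Dg*, the dystroglycan gene.

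**Figure D2:**
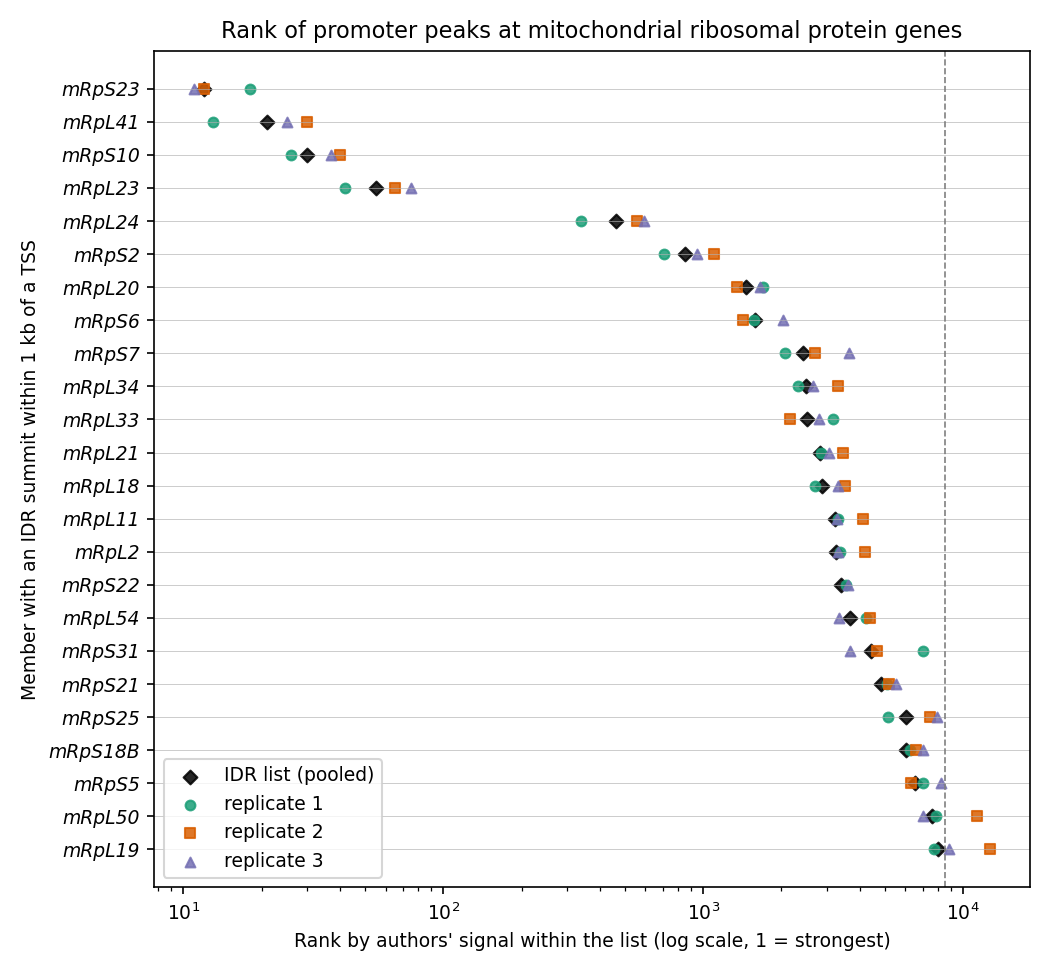
Rank of the promoter peak of each of the 24 members (rows, strongest IDR peak at the top) in the IDR list and in each replicate list (horizontal axis, log scale, rank 1 = strongest). The dashed line stands at rank 8513, where the IDR list ends. The 4 uppermost members lie within rank 75 in every list, and the points of replicate 2 for *mRpL50* and *mRpL19* lie beyond the dashed line; *mRpS22* has no point for replicate 2.

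The remaining 14 peaks had ranks from 2506 to 8013. In order of rank they belong to *mRpL33*, *mRpL21*, *mRpL18*, *mRpL11*, *mRpL2*, *mRpS22*, *mRpL54*, *mRpS31*, *mRpS21*, *mRpS25*, *mRpS18B*, *mRpS5*, *mRpL50* and *mRpL19*. Over all 24 the median rank was 2839.5, beside a median of 2952 over all genes with a promoter peak, so the medians lay close together. The 4256 strongest IDR peaks included the peaks of 17 of the 73 members, beside 14.4% of all protein-coding genes. When the IDR list was divided by rank into 5 equal bins, these held 8, 8, 3, 3 and 2 of the member peaks from strongest to weakest. The strongest bin held 33.3% of the member peaks, beside 33.6% for all genes with a promoter peak, and the next bin 33.3%, beside 22.8%.

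The ranks of a member differed little between replicates, compared with the range from 12 to 8013. Over the 23 members with a peak in every replicate, the highest of the 3 ranks was a median of 1.47 times the lowest, and at most 2.31 times. Of 71 replicate peaks matched to a member peak, 62 had their summit within 50 bp of the IDR summit, with a median shift of 13 bp and a largest shift of 116 bp. Where several peaks of a replicate overlapped, the one with the closest summit was taken, and the IDR list derives from the same replicates. Small shifts are thus partly built in. Neither the shifts nor the rank ratios are given for all genes here. The peaks of 21 of the 73 members were among the strongest 8513 of all 3 replicates, beside 17.5% of all protein-coding genes. Read for the strongest promoter peak of each gene alone, the peak was in all 3 for 78.3% of all genes with one. The share was 88.1% for cytoplasmic ribosomal genes, 77.3% for respiratory chain genes and 82.4% for genes with a head-to-head neighbour. For the members with a promoter peak it was 87.5%. The exceptions were *mRpS22*, with ranks 3545 and 3608 in replicates 1 and 3 and no overlapping peak in replicate 2; *mRpL50*, whose rank of 11341 in replicate 2 lay past the end of the list; and *mRpL19*, whose ranks of 12694 in replicate 2 and 8835 in replicate 3 both lay past it.

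Summits lay mostly just upstream of the gene. Of the 24, 22 were upstream of the member's nearest TSS (91.7%), beside 78.1% for all genes with a promoter peak. Among genes with a promoter peak and 1 TSS it was 83.5%, and 89.9% among those that also have a head-to-head neighbour. Counted from the TSS, the median position was -143.5 bp for the members and -155 bp for all genes, negative values lying upstream. Of the 24 strongest peaks, 18 had their summit within 250 bp. By any IDR summit it was 19 members, beside 14.3% of all protein-coding genes. The added member is *mRpL2*, whose weaker summit lies 177 bp upstream. The summit farthest away was that of *mRpL33*, 616 bp upstream, which lies in a noncoding exon or UTR of *norpA*, the phospholipase C gene of phototransduction. The other summit downstream of a TSS was that of *mRpS5*, 467 bp from the nearer of its 2 annotated TSSs, in an intron.

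These positions go with the arrangement of the genes. Of the 73 members, 58 (79.5%) have a head-to-head neighbour, that is, a coding gene on the other strand whose TSS lies 1 to 1000 bp upstream of theirs, beside 35.2% of all protein-coding genes. A promoter peak was found at 22 of these 58 members (37.9%), beside 29.6% of all genes with such a neighbour. Of the 15 members without one, 2 had a promoter peak (13.3%), *mRpS5* and *mRpL19*, beside 18.2% of all genes without one. Restricted to genes with 1 TSS, the shares of all genes were 22.6% with a head-to-head neighbour and 11.7% without. A promoter peak in such an interval is counted for both genes, and the lists do not show which of them, if either, Met acts on.

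Of the 24 summits, 12 were nearest to the TSS of another coding gene (50%), beside 23% for all genes with a promoter peak. In all 12 cases that gene was the head-to-head neighbour. As a share of the 22 members with such a neighbour and a promoter peak, this was 54.5%, beside 44.1% of all such genes and 56.3% of those with 1 TSS. In 18 of the 24 cases the summit lay between the start sites of the pair. The same share over all genes with a head-to-head neighbour is not given here, so this count is not shown to be particular to the members. The neighbours differ in function: besides those named above they include *rept* at *mRpL21*, a helicase of chromatin remodelling complexes; *Taz* at *mRpL18*, the cardiolipin remodelling enzyme of mitochondria; *HtrA2* at *mRpL11*, a mitochondrial protease; *FoxK* at *mRpL2*, a forkhead factor; and *nmdyn-D6* at *mRpS25*, a nucleoside diphosphate kinase. The *mRpL11* summit lies 2 bp from the TSS of *HtrA2* and 124 bp upstream of its own. *mRpL2* was the single member with more than 1 IDR summit within 1 kb, one at rank 3244 and 377 bp upstream, in an intron of *FoxK*, and one at rank 7347 and 177 bp upstream.

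**Figure D3:**
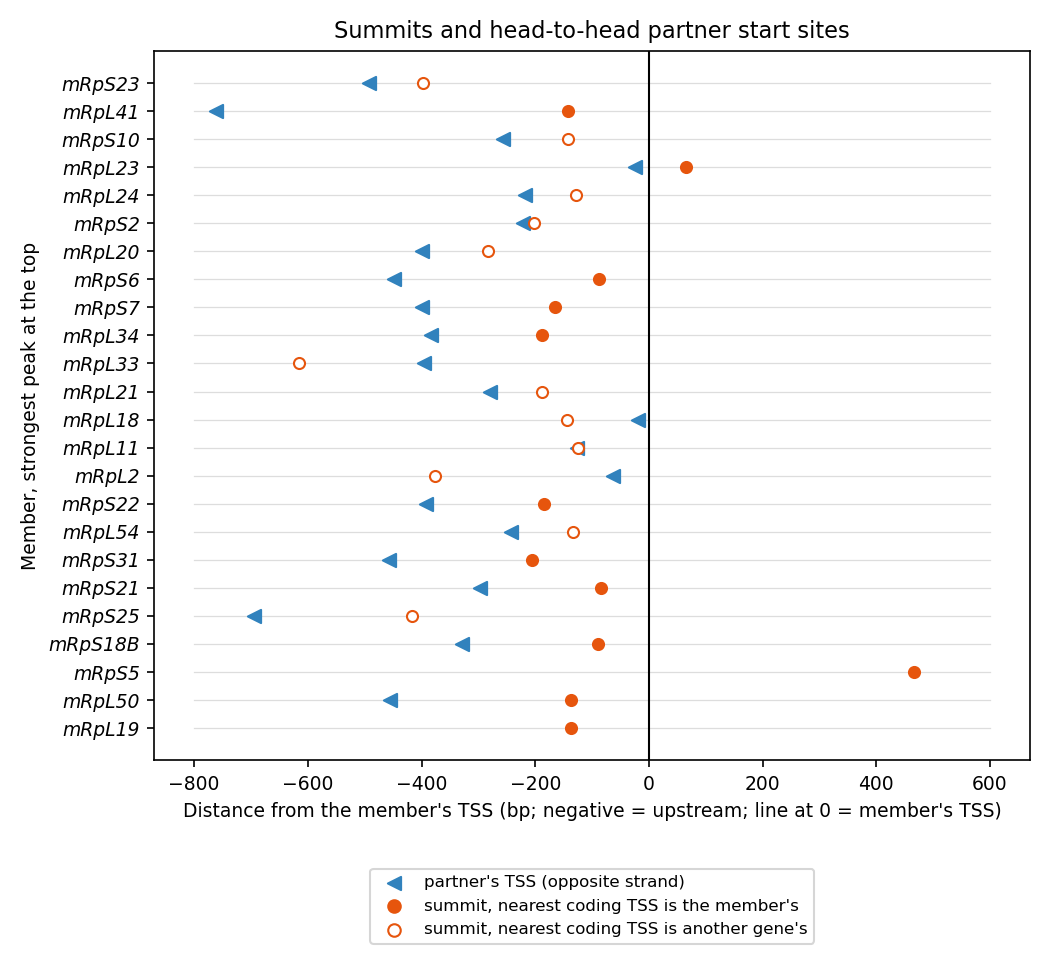
Position of the Met summit (circles) and of the head-to-head neighbour's TSS (blue triangles) relative to the member's own TSS (black line at 0, horizontal axis in bp, negative = upstream) for the 24 members with a promoter peak (rows). Filled circles are summits nearest to the member's own TSS and open circles those nearest to the neighbour's. There are 12 of each, and 18 of the 24 circles lie between the triangle and the line.

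Pairs with closely spaced start sites had fewer peaks than those set farther apart. Of members whose neighbour's TSS was 1 to 100 bp away, 3 of 18 had a promoter peak (16.7%), beside 22.4% of all genes with that spacing. At 101 to 300 bp it was 7 of 15 (46.7%), beside 27.3%, and at 301 to 1000 bp 12 of 25 (48%), beside 33.4%. The shares thus differed by spacing among the members and, less so, among all genes; the bins were set after the data had been seen and the difference was not tested. The gap to the neighbour's TSS had a median of 356 bp over the 22 members with a peak and of 228 bp over the 36 without one.

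**Figure D4:**
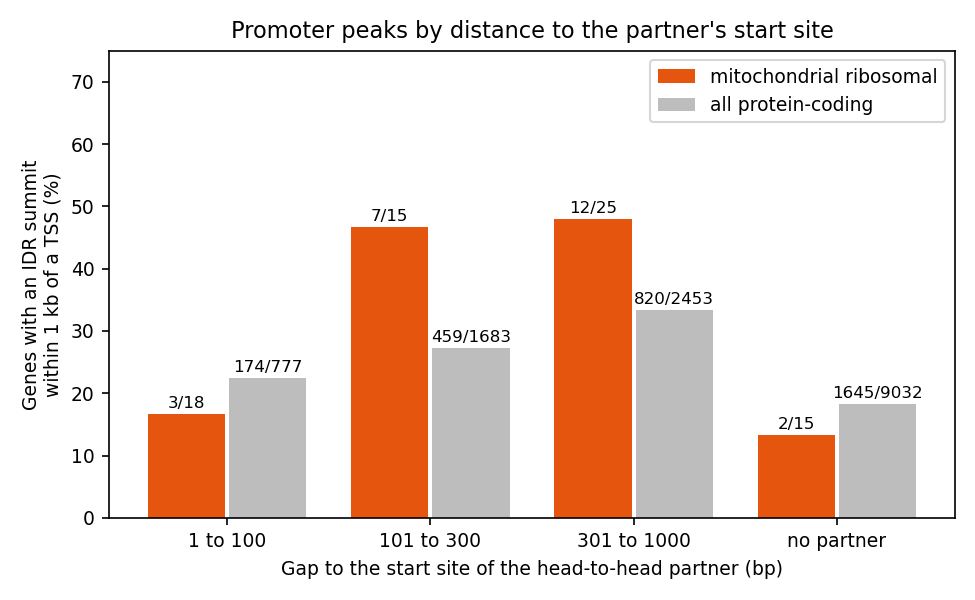
Share of genes with a promoter peak in the IDR list (percent, vertical axis) by the gap to the head-to-head neighbour's TSS (bp, horizontal axis), for mitochondrial ribosomal protein genes (orange) and all protein-coding genes (grey). Numbers above the bars are genes with a peak over genes in the bin. The orange bars at 101 to 300 bp and 301 to 1000 bp are 46.7% and 48%, and those at 1 to 100 bp and with no partner are 16.7% and 13.3%.

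The intervals at *mRpS2* and *mRpL21* are given as examples of pairs with the summit nearest to the neighbour. Not every pair is laid out so. At 10 of the 22 members with a neighbour and a peak, the summit lay nearest to the member's own TSS. Among these, *mRpL41*, *mRpL23*, *mRpS6*, *mRpS21* and *mRpS18B* also hold CAGCTG in their promoters. The intervals shown are the whole DNA between the start sites. They are chr2L:4850420-4850640 for *mRpS2* and *Mon1* and chr3L:19255062-19255339 for *mRpL21* and *rept*. Both are given on the minus strand from dm6 (RefSeq Release 6), so that each begins next to the neighbour's TSS and ends next to that of the ribosomal gene. Capitals mark the E-box variant CAGCTG, which reads the same on both strands.
mRpS2: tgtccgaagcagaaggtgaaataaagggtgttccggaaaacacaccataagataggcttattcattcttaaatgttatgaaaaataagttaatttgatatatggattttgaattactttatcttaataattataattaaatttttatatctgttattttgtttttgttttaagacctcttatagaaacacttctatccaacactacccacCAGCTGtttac
mRpL21: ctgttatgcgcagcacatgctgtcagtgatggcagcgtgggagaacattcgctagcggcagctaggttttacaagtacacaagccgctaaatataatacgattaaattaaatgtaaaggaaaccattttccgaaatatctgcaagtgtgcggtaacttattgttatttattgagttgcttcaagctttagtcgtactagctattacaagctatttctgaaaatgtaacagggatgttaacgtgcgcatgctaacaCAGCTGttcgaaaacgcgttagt
In both, the marked CAGCTG stands beside the TSS of the ribosomal gene, while the Met summit lies toward the neighbour, 20 bp from the *Mon1* TSS and 91 bp from the *rept* TSS.

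CAGCTG was the element in which the members' promoters stood farthest, in percentage points, from those of all genes among the 15 searched. Promoters were read from 250 bp before to 50 bp after the most upstream TSS, by exact letters on both strands. CAGCTG was present in 40 of 73 members (54.8%), beside 17.7% of all promoters, 21.9% of promoters with a head-to-head neighbour, 8.24% of cytoplasmic ribosomal and 23.7% of respiratory chain promoters. It stood close to the start site: 36 of the 45 sites in the members (80%) were within 50 bp of the TSS, beside 51.2% of the sites in all promoters. This closeness was not particular to the members. It held for 8 of 9 sites in cytoplasmic ribosomal promoters (88.9%) and for 69.2% of those in respiratory chain promoters. In genes with 1 TSS and a head-to-head neighbour it was 61%. The pattern of CAGCTG in the members was picked out after the counts were seen, and no test was made of it.

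CAGCTG was common in members with and without a Met peak, and its share at member summits was near that at all promoter summits. It was present in 15 of the 24 members with a promoter peak (62.5%) and in 25 of the 49 without one (51%). Only the summit of *mRpS2* had CAGCTG within 50 bp, 1 of 24 (4.17%), beside 4.4% of all promoter summits. That site lies past the *Mon1* TSS, outside the interval shown. Within 100 bp it was 3 of 24 (12.5%), beside 10.4%. The promoter windows are longer than the summit windows, so shares in promoters and at summits cannot be set against each other. Over the 15 members with both, the nearest site was a median of 112 bp from the summit, from 40 bp at *mRpS2* to 626 bp at *mRpL33*.

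Elements known from Met and from housekeeping promoters were rare at the summits. The palindromic E-box CACGTG was at none of the 24 summits, beside 0.922% of all promoter summits. The C-box CACGCG, a juvenile hormone response element letter pattern, was within 50 bp of 1 summit, that of *mRpL33*, beside 2.01% of all. In the promoters, CACGTG was present in 5 of 73 members (6.85%), beside 4.23% of all, and CACGCG in 4 (5.48%), beside 6.14%. *mRpL23* was the 1 member with a promoter peak and CACGTG in its promoter, and it also had CACGCG.

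The DNA replication-related element (DRE), bound by the factor Dref at many housekeeping genes, was searched as TATCGATA and by its core ATCGAT, which it contains. TATCGATA was present in 15 of 73 member promoters (20.5%), beside 9.37% of all, and ATCGAT in 27 (37%), beside 23.3% of all and 34.6% of those with a head-to-head neighbour. ATCGAT was in 37.6% of cytoplasmic ribosomal and 30.1% of respiratory chain promoters. Its share was 7 of 24 among the members with a Met peak (29.2%) and 20 of 49 among those without (40.8%). The core promoter element motif 1, searched as GGTCACACT, was present in 1 of 24 (4.17%) with a peak and in 7 of 49 (14.3%) without. Over all members it was 8 of 73 (11%), beside 6.05% of all promoters and 10.6% of those with a head-to-head neighbour. It was in 10.6% of cytoplasmic ribosomal and 18.3% of respiratory chain promoters. Neither ATCGAT nor GGTCACACT was within 50 bp of any of the 24 summits, beside 5.49% and 0.671% of all promoter summits. TATAAA, the letters of the TATA box, was within 50 bp of 7 of 24 summits (29.2%), beside 22.1% of all. These windows are low in G+C, and its part in how often each word is met was not tested. A match of letters is not shown to be a bound site.

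Other elements were less frequent in the members or differed little from all promoters. GAGAG, a word bound by the GAGA factor, was present in 12 of 73 members (16.4%), beside 29.8% of all promoters. TCAGT, the letters of the initiator, was present in 28 (38.4%), beside 51.6%. The other words searched were GCGTG, which overlaps CACGCG on the other strand, in 17 members (23.3%), beside 26.3%, CATATG in 8 (11%), beside 7.83%, TCTTT in 43 (58.9%), beside 60.5%, TGCGCA in 6 (8.22%), beside 6.98%, TGATAA in 13 (17.8%), beside 22.7%, and CAGGTAG in 0, beside 1.64%.

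**Figure D5:**
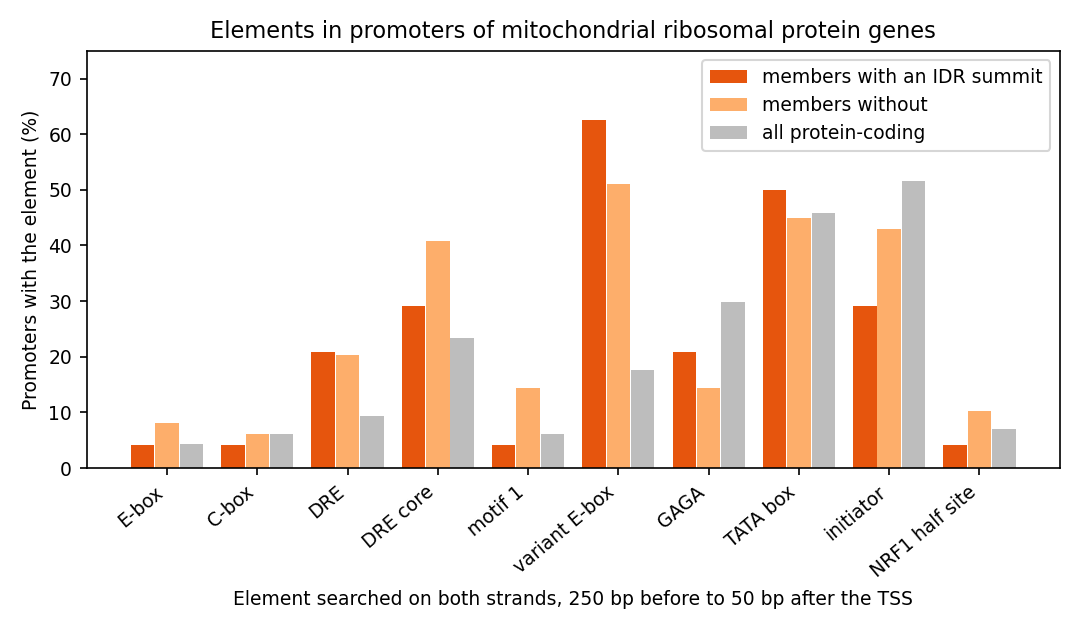
Share of promoters (percent, vertical axis) that hold each of 10 elements on either strand, for members with an IDR summit, members without one and all protein-coding genes. The variant E-box is CAGCTG, at 62.5%, 51% and 17.7%; the DRE core is higher in the members without a summit, at 40.8%, than in those with one, at 29.2%.

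Of the 49 members with no IDR promoter peak, 46 had none in the list of 30000 pooled peaks either. Those 46 are 63% of the members, and the same held for 62.1% of all protein-coding genes. Counting the whole pooled list, 27 of 73 members had a promoter peak, beside 37.9% of all protein-coding genes, so the weaker peaks of that list added 3 members. They were *mRpL55* at rank 10528, *mRpL49* at rank 10595 and *mRpL22* at rank 15731, with summits 609, 905 and 899 bp from a TSS. The nearest IDR summit of the 49 was 1014 bp away at the least, 9864 bp in the median and 88377 bp at the most, and for 33 of them it was more than 5 kb away.

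Inside the limit of 1 kb, the summits farthest from a TSS were those of *mRpL33* at 616 bp and *mRpS5* at 467 bp, so no member lay close to it. The nearest outside it was *mRpL27*, with a summit of rank 3795 at 1014 bp downstream, which lies 224 bp from the TSS of the cytoplasmic ribosomal gene *RpL27A*. *mRpL55* had one at 1437 bp downstream and *mRpL49* one at 1906 bp upstream, of ranks 7011 and 5688. *mRpL13* had a strong one, of rank 179, at 1448 bp downstream, which lies 121 bp from the TSS of *CG10602*. *mRpL46* had one of rank 400 at 1900 bp upstream, 94 bp from the TSS of *PolD2*. All 5 of these summits lie nearer to a coding gene other than the member.

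*mRpS24*, a small subunit protein gene (chr3R:24162829-24163545, minus strand), had a promoter summit in every replicate but none in the pooled or the IDR list. Its ranks were 2712, 1960 and 2467 in replicates 1, 2 and 3, and its summits lay 238, 178 and 242 bp upstream. Across the genome, 69 of the 6339 strong peaks of replicate 1 that both other replicates share (1.09%) had no overlapping peak in the pooled list. Why the pooled list lacks them is not given in the sources used here. Of the other members with no IDR peak, *mRpL27*, *mRpL35*, *mRpL51* and *mRpS26* had a promoter summit in 2 replicates and *mRpL17*, *mRpL37*, *mRpL4*, *mRpL49*, *mRpL55*, *mRpS16* and *mRpS17* in 1. The *mRpL27* summits were in different places. That of replicate 1 lay 999 bp downstream, at rank 3039, and that of replicate 3 lay 204 bp upstream, at rank 8464. The other 37 members had none in any of the 3 strongest lists. The matching share of all protein-coding genes is not given here. Each list alone had a promoter summit at 23% to 25.3% of them.

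The base composition of the promoters overlapped between members with and without a peak. Promoter G+C content had a median of 33.1% in the 24 members with a peak and of 35.9% in the 49 without one, with ranges from 27.9% to 46.5% and from 25.7% to 57.7%. Over all protein-coding genes the medians were 38.2% with a peak and 37.9% without one.

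The mitochondrial ribosome works with tRNA synthetases, translation factors and the machinery that transcribes and processes mitochondrial RNA. Of the 59 symbols written for 4 such lists, 44 matched a coding gene, 8 are other names of matched genes, and 7 matched none and are not counted. Of these 44 genes, 8 had a promoter peak (18.2%), beside 22.2% of all protein-coding genes. Neither of the mitochondrial ribosomal protein genes with other names, *tko* and *bonsai*, had one. Among 13 translation factors there was 1, *mIF2*, the initiation factor that brings the initiator tRNA, at rank 4880, with 5055, 5173 and 7238 in the replicates.

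Of 16 mitochondrial tRNA synthetase genes, 4 had a promoter peak (25%). *LeuRS-m* had rank 520, but its summit lies 843 bp upstream, nearest to the dynein gene *Dhc64C*, and the peak overlapped one in replicate 1, at rank 458, and none in replicates 2 and 3. *ArgRS-m* had rank 2805, with 2581, 4605 and 2334 in the replicates and its summit 64 bp upstream of its TSS. *CysRS-m* had rank 4429, with 4352, 4658 and 6446, and its summit was nearest to *O-fut1*, a fucosyltransferase gene. The fourth was *Slimp*, a synthetase-like gene, at rank 4861. Of the 4, *ArgRS-m* and *Slimp* had the summit nearest to their own TSS.

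Of 13 genes for mitochondrial transcription and RNA, 3 had a promoter peak (23.1%). *PNPase*, the polynucleotide phosphorylase that degrades mitochondrial RNA, had the strongest peak of any gene in these lists, at rank 8, with 7, 8 and 7 in the replicates. Its summit lies 81 bp downstream of its own TSS, the nearest of any coding gene. *mTerf3*, a mitochondrial transcription termination family member, had rank 6418, with 6752, 7667 and 6323. *scu*, whose human counterpart is a subunit of the mitochondrial RNase P, had rank 7893, with 6071 and 6917 in replicates 2 and 3 and no overlapping peak in replicate 1. *PNPase* was the 1 gene of the 44 among those with one of the 100 strongest peaks, and its place in all 3 replicates varied by 1 rank.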

How the data were processed

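Met was measured by ChIP-seq in 3 libraries of 1 group. The deposited peak lists in dm6 were used: 1 relaxed list per replicate, 1 for the pooled replicates and 1 IDR-thresholded list, each called against the same control, per the text listings deposited with the libraries. The deposited lists give each peak a signal value with no stated normalization, which served only to rank peaks within a list. Which aligner and peak caller made them is not given in the sources used here, and the libraries' depth is unknown. The 8513 IDR peaks were checked to be the strongest of the 30000 pooled peaks. The lists in dm3 and the control's reads were not used.

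The gene models were those of BDGP6.54 in Ensembl release 115 and the sequence that of RefSeq Release 6, all in dm6; coordinates are 1-based. For each gene, the strongest peak with its summit within 1 kb of any TSS was kept. Peaks of 2 lists matched when they shared at least 1 bp; replicate lists were taken to their 8513 strongest peaks, of which 16 in replicate 2 and 7 in replicate 3 lie off the 6 major arms. Motifs were searched within 50 bp of a summit and in promoters. Shares, medians and SDs were computed with Python 3.11.15, tested on simulated data, with no significance test, since there is 1 group. The members, gene lists, motifs and tests were chosen with earlier results of these data known. Described in full were the 10 members of best rank, the members nearest to the 1 kb limit, the members found only in the relaxed list, and up to 3 genes per pathway list. Alternatives were other windows, TSS rules, list lengths and overlap rules, each replicate left out in turn and, chosen after seeing the data, RefSeq transcripts as the source of TSSs.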

Additional observations from a re-analysis of the deposited data

How the results depend on the processing

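The count of 24 members with a promoter peak fell to 12, and their median rank of 2839.5 became 3908.5, when a peak went only to the gene with the nearest TSS. It lay between 17 and 29 for other distances and list lengths. It was 24 with the most upstream TSS, with the peak midpoint, and with RefSeq transcripts, the last chosen after seeing the data. The pathway count of 8 of 44 genes was 3 of 44 among the 4256 strongest IDR peaks, beside 14.4% of all protein-coding genes. The mean of 28.7 members over the replicate lists was 35 within 2 kb and 19.3 with the 4256 strongest peaks of each. It ran from 27.5 to 29.5 with each replicate left out. Shares of all genes under these rules for the replicate lists are not given here. The count of 21 members in all replicates ran from 21 to 23 on leaving one out. Within 100 bp of the summit, 3 in place of 1 of the 24 held an E-box or C-box. The DRE core or motif 1 was held by 1 in place of 0. At that distance CACGTG was at 4.17% of member summits, beside 2.31% of all promoter summits, and CACGCG at 8.33%, beside 4.19%. ATCGAT was at 4.17%, beside 9.73%, and GGTCACACT at 0, beside 1.51%. Each of these member shares rests on at most 2 summits. For the values that changed, the cause was not tested beyond the wider or narrower rule itself. Of 35 alternative values, 28 stayed within the limits set for them and 7 moved. No paired analysis was possible because there is 1 group. The unknown depth limits what the absence of a peak can say.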
